A study of Drosophila melanogaster with 8 samples.

Results

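The transposable element (TE) families accord, accord2 and Quasimodo were followed in Drosophila melanogaster ovaries, as 3 of the 111 TE families whose polyA RNA was counted. They were taken by their names in the count tables, by a rule that uses no measured value, although earlier results of these data were known. There were 4 groups of 2 biological replicates. No-KD flies (w, with tj-GAL4, and with tubP-GAL80[ts] and sh-piwi) stayed at 20°C, where the thermosensitive GAL80 blocks GAL4. Flies of the piwi-sKD group had the same genotype and spent their last 5 days at 25°C, which lets GAL4 drive a short hairpin against piwi in the somatic follicle cells, where the traffic jam (tj) promoter is active. Both double knockdowns had 1 copy of the driver (tj-GAL4/+) and GAL80[ts] sh-piwi over a second hairpin. In piwi-sKD,ctrl-sKD that hairpin was sh-w, against white, as a control, and in piwi-sKD,dcr2-sKD it was sh-dcr2, against Dcr2. By their labels both grew at 20°C and had the same 5 days at 25°C, although their library names carry a number above that temperature. All groups thus carried sh-piwi and 3 of the 4 were kept where it is driven. Each sample was made from whole ovaries, in which the follicle cells surround the germline, so that more cells with an RNA and more RNA per cell cannot be told apart. Only TE rows were used here, so the knockdown of piwi and Dcr2 and the markers of the tissue were not checked.

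All 3 families are long terminal repeat (LTR) retrotransposons of the Gypsy superfamily, which the study groups among the endogenous retroviruses (ERVs). Such elements carry gag and pol genes between their LTRs, some of them also an env-like gene, and move through an RNA copy that is reverse transcribed. In follicle cells Piwi, guided by piRNAs, silences ERVs at transcription, and Dcr2 cuts double-stranded RNA into siRNAs that act on the transcripts. A well-known accord insertion lies upstream of Cyp6g1, a cytochrome P450 gene, where it accompanies insecticide resistance in natural populations.

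The families differ in how many copies the reference genome holds. Coordinates here are those of the BDGP6.54 annotation and are not from the count tables, in which a family is 1 row and no read is tied to an insertion. The annotation lists 3 accord insertions, and 1 of them is longer than 4000 bp. It lies on chromosome 2R from 12862330 to 12867554 on the plus strand (5225 bp), within an intron of CG17574, a protein-coding gene. Another accord fragment, 75 bp on chromosome 3L from 23632603 to 23632677, lies in an intron of AGO3, which encodes a germline protein of the PIWI family. For accord2 the annotation lists 7 insertions, 6 of them on chromosome 2R, and 2 are longer than 4000 bp. The longer span (15516 bp, chromosome 2R from 5046069 to 5061584) overlaps diver2 and gypsy spans, and the other (7650 bp, chromosome 2R from 5162230 to 5169879) overlaps neither a gene nor another TE.

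Quasimodo is the most numerous of the 3, with 41 annotated insertions, of which 23 are longer than 4000 bp. Of the 41, 30 lie outside annotated genes, 10 overlap introns alone and 1 overlaps an exon. That one is a 978 bp insertion on chromosome X from 21633014 to 21633991, on the minus strand, and the exon belongs to the non-coding RNA gene flam, which is on the plus strand. The flam locus is the main source of piRNAs in follicle cells. No annotated accord or accord2 insertion overlaps flam. Insertions that the flies themselves carried were not analysed here, and how reads that matched several copies or families were shared out is not given in the sources used here.

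The first comparison asked how the RNA of these families changed when Piwi was depleted in follicle cells. All 3 were higher in piwi-sKD, accord2 by 11.3-fold, Quasimodo by 3.64-fold and accord by 2.51-fold (ratio of group means), although accord was not higher when samples were scaled to an equal sum of TE counts. In each of the 3 the piwi-sKD samples lay above both no-KD samples. The same was true of 73.4% of the 109 families tested, and the ratio was over 2 for 28.7% of 108 families. With limma, a moderated linear model fitted to all families on log2(normalized count + 1), 60.6% of the families differed at a Benjamini-Hochberg adjusted p under 0.05, 55.0% being higher and 5.50% lower, and accord, accord2 and Quasimodo were among the higher ones. These p-values rest on the spread between the samples, with 2 in each group. For each family limma moderates that spread towards the spread of families of like level (6.11 prior degrees of freedom). The no-KD flies were not shifted to 25°C, so Piwi depletion and temperature cannot be told apart in these samples. In other flies, with an added GAL80 that is not thermosensitive, the study measured some TEs by RT-qPCR. It reports that none of those rose after the shift, and its main text does not say whether these 3 families were among them.

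The normalized read count of accord2, that is reads divided by the sample's size factor, was 99.2 and 87.8 in no-KD, against 964 and 1153 in piwi-sKD. The piwi-sKD samples were thus far from the no-KD samples, compared with the gaps within either group. The means were 93.5 ± 8.06 and 1059 ± 134 (SD, n = 2 each), which is 3.48 ± 0.14 on the log2 scale (SE, limma adjusted p = 1.31e-07). Of the families tested, accord2 had the 7th largest rise. The reads behind these values were 92 and 87 in no-KD, against 933 and 1303 in piwi-sKD, so that counting error was wider in no-KD relative to the count (no-KD 95% exact Poisson intervals of 74.2 to 112.8 and 69.7 to 107.3 reads). These intervals cover counting error only.

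Quasimodo stood at 329 and 307 normalized counts in no-KD, against 1165 and 1146 in piwi-sKD. Its replicates were the closest of the 3 families in piwi-sKD. The means were 318 ± 15.6 and 1156 ± 13.6 (SD, n = 2 each), with a log2 fold change of 1.86 ± 0.10 (SE, limma adjusted p = 5.97e-07). It rested on at least 304 reads in every sample.

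The family with the lowest counts, not corrected for length, was accord, with 80.9 and 50.5 normalized counts in no-KD, against 136 and 193 in piwi-sKD. Its groups did not overlap, but relative to its level its replicates differed more than those of the others. The 75 and 50 reads of the no-KD samples had 95% exact Poisson intervals of 59.0 to 94.0 and 37.1 to 65.9, which overlap. The means were 65.7 ± 21.5 and 165 ± 39.995 (SD, n = 2 each), which gave 1.33 ± 0.26 on the log2 scale (SE, limma adjusted p = 0.00267). With each sample left out in turn the log2 fold change of accord lay between 0.995 and 1.67 and the adjusted p stayed under 0.05, up to 0.0314.

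**Figure D1:**
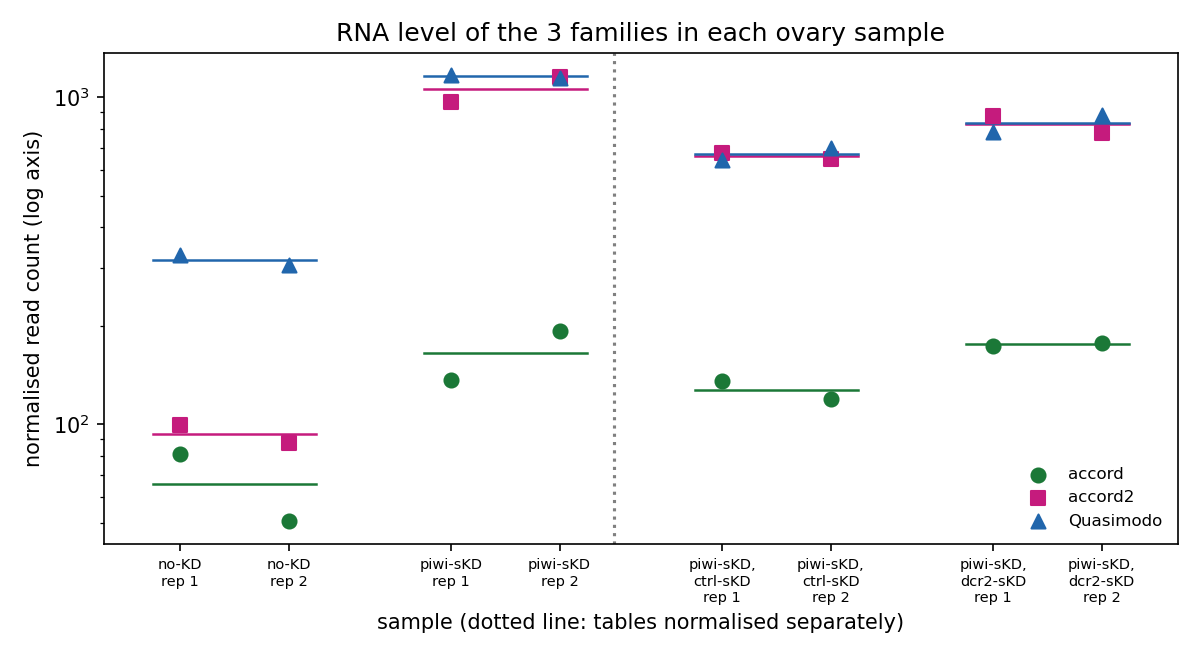
Normalized read counts of accord, accord2 and Quasimodo in each of the 8 samples, on a log axis, with a line at each group mean (n = 2). The dotted line separates the pair of tables, which have their own size factors. In no-KD accord2 (99.2 and 87.8) sits near accord, and in the other groups it sits beside Quasimodo.

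The size of these changes depended on how the samples were scaled. The median log2 fold change of all families was 0.47, and relative to it the log2 fold changes were 3.01 for accord2, 1.39 for Quasimodo and 0.86 for accord. As deposited, the summed TE counts were 86455 and 79523 in no-KD, against 198585 and 231108 in piwi-sKD. Scaling every sample to an equal TE sum treats total TE RNA as constant and takes that difference out of every family. On that scale accord2 was still higher by 2.12 ± 0.14 (SE) and Quasimodo by 0.49 ± 0.12 (limma adjusted p = 8.54e-05). The rise of accord was lost, with a log2 fold change of -0.025 (limma adjusted p = 0.906). It was also lost with samples centred on the median level of all families (0.13, limma adjusted p = 0.588). That centring makes the median level equal between samples, not the median change. The median log2 fold change of all families was then -0.73, and it was -0.88 at an equal TE sum. Centred on the median of the DNA and the non-LTR families, accord was still higher (0.62, limma adjusted p = 0.0226), while the median of all families was -0.23.

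The share of TE reads is the same measure as the level at an equal TE sum, given here per sample, and is not a separate check. Reads of accord made up 0.0935% and 0.0634% of all TE reads in no-KD, against 0.0687% and 0.0835% in piwi-sKD, so the groups overlapped. For accord2 the shares were 0.115% and 0.110% in no-KD, against 0.485% and 0.499% in piwi-sKD. Quasimodo had 0.380% and 0.386% in no-KD, against 0.587% and 0.496% in piwi-sKD. The accord2 and Quasimodo shares were thus higher in piwi-sKD, without overlap. The 95% exact binomial (Clopper-Pearson) intervals of Quasimodo ended at 0.432% at most in no-KD and began at 0.469% or more in piwi-sKD. They cover counting error only. The piwi-sKD replicates differed beyond it, with intervals of 0.553% to 0.622% and 0.469% to 0.524%.

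The other Gypsy-superfamily families give the setting of these rises. Of 42 such families with a value, 29 were higher and 1 was lower in piwi-sKD at a limma adjusted p under 0.05, and 18 were more than 2-fold higher. Their median log2 fold change was 0.72, against 0.47 for all families, and accord, accord2 and Quasimodo were all above it. The lower family was micropia (-0.57, limma adjusted p = 0.0175), and the count of lower families was 0 without no-KD replicate 2 or without either piwi-sKD sample. With the TE sum made equal, 14 of these families were higher and 26 lower, beside 22 higher and 78 lower among all 109 families.

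**Figure D2:**
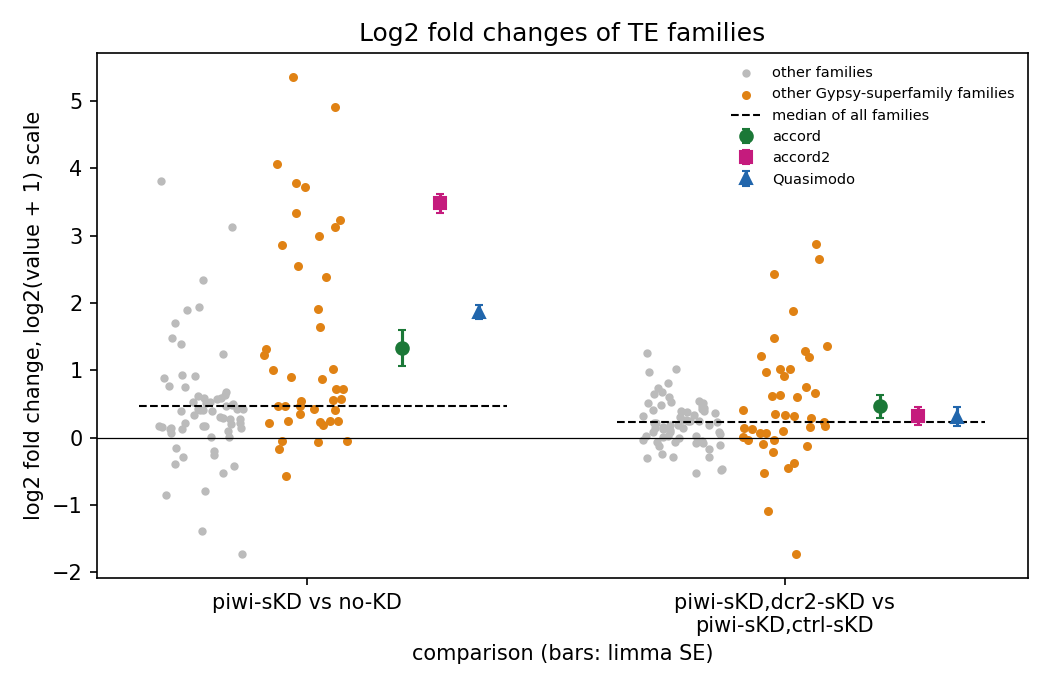
Log2 fold change of every TE family tested in the 2 comparisons, on the log2(value + 1) scale, with accord, accord2 and Quasimodo shown with limma SE bars and the median of all families as a dashed line. In piwi-sKD against no-KD accord2 is at 3.48, Quasimodo at 1.86 and accord at 1.33, above the median of 0.47, and in the second comparison the 3 lie at 0.31 to 0.46, near the median of 0.24. At an equal TE sum accord moves to -0.025 in the first comparison, and the 3 families to between -0.41 and -0.25 in the second.

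The second comparison asked whether Dcr2 limited the RNA of these families once Piwi was depleted. All 3 differed little between the double knockdowns, by 1.38-fold for accord, 1.25-fold for accord2 and 1.24-fold for Quasimodo, and the direction turned in all 3 at an equal sum of TE counts. None passed 2-fold, which 11.8% of the 110 families did. In each the piwi-sKD,dcr2-sKD samples lay above the piwi-sKD,ctrl-sKD samples, as in 54.5% of all families. By limma 30.9% of the families differed at an adjusted p under 0.05, 27.3% being higher and 3.64% lower, and of accord, accord2 and Quasimodo only accord was called. The groups came from separate crosses, and effects of the cross and of Dcr2 cannot be told apart.

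For accord the normalized counts were 135 and 119 in piwi-sKD,ctrl-sKD, against 173 and 178 in piwi-sKD,dcr2-sKD. The means were 127 ± 11.5 and 175 ± 3.18 (SD, n = 2 each), a difference of 0.46 ± 0.18 on the log2 scale (SE, limma adjusted p = 0.0294). This call was lost when any 1 of the 4 samples was left out, with adjusted p-values of 0.0865 without piwi-sKD,ctrl-sKD replicate 1, 0.152 without its replicate 2, 0.222 without piwi-sKD,dcr2-sKD replicate 1 and 0.238 without its replicate 2. It was lost as well under each scaling on TE families (limma adjusted p of 0.181 to 0.682), and at an equal TE sum the direction turned (-0.25).

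The counts of accord2 were 675 and 645 in piwi-sKD,ctrl-sKD, against 878 and 775 in piwi-sKD,dcr2-sKD. Its means were 660 ± 21.2 and 827 ± 72.8 (SD, n = 2 each), with a log2 fold change of 0.32 and a 95% interval of 0.05 to 0.60 before adjustment (limma adjusted p = 0.0624). The difference did not pass the adjusted threshold, and the interval leaves room for a change of up to 0.60 on the log2 scale.

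Quasimodo was at 641 and 696 normalized counts in piwi-sKD,ctrl-sKD, against 781 and 883 in piwi-sKD,dcr2-sKD. The means were 669 ± 38.8 and 832 ± 72.1 (SD, n = 2 each), with a log2 fold change of 0.31 and a 95% interval of 0.04 to 0.59 before adjustment (limma adjusted p = 0.0717). Without piwi-sKD,ctrl-sKD replicate 2 it passed the threshold (0.37, limma adjusted p = 0.0275). Relative to the median log2 fold change of all families, 0.24, the differences were 0.22 for accord, 0.08 for accord2 and 0.07 for Quasimodo.

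Scaling decided the direction of these small differences. With samples centred on the median level of the DNA and the non-LTR families, the log2 fold changes were 0.072 for accord, -0.070 for accord2 and -0.080 for Quasimodo. As deposited, the summed TE counts were 192945 and 179192 in piwi-sKD,ctrl-sKD, against 319798 and 294253 in piwi-sKD,dcr2-sKD. The equal TE sum takes that difference out of every family. On that scale accord2 (-0.40, limma adjusted p = 0.00469) and Quasimodo (-0.41, limma adjusted p = 0.00384) were lower in piwi-sKD,dcr2-sKD. The other Gypsy-superfamily families spread far more widely, from -1.72 to 2.87, with 17 of 42 higher, 4 lower (gypsy5, HMS-Beagle2, rover and ZAM) and a median of 0.33. At an equal TE sum 10 of these were higher and 21 lower, beside 12 higher and 65 lower among all 110 families. With the deposited factors the count of lower families was 2 when either piwi-sKD,dcr2-sKD sample was left out.

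**Figure D3:**
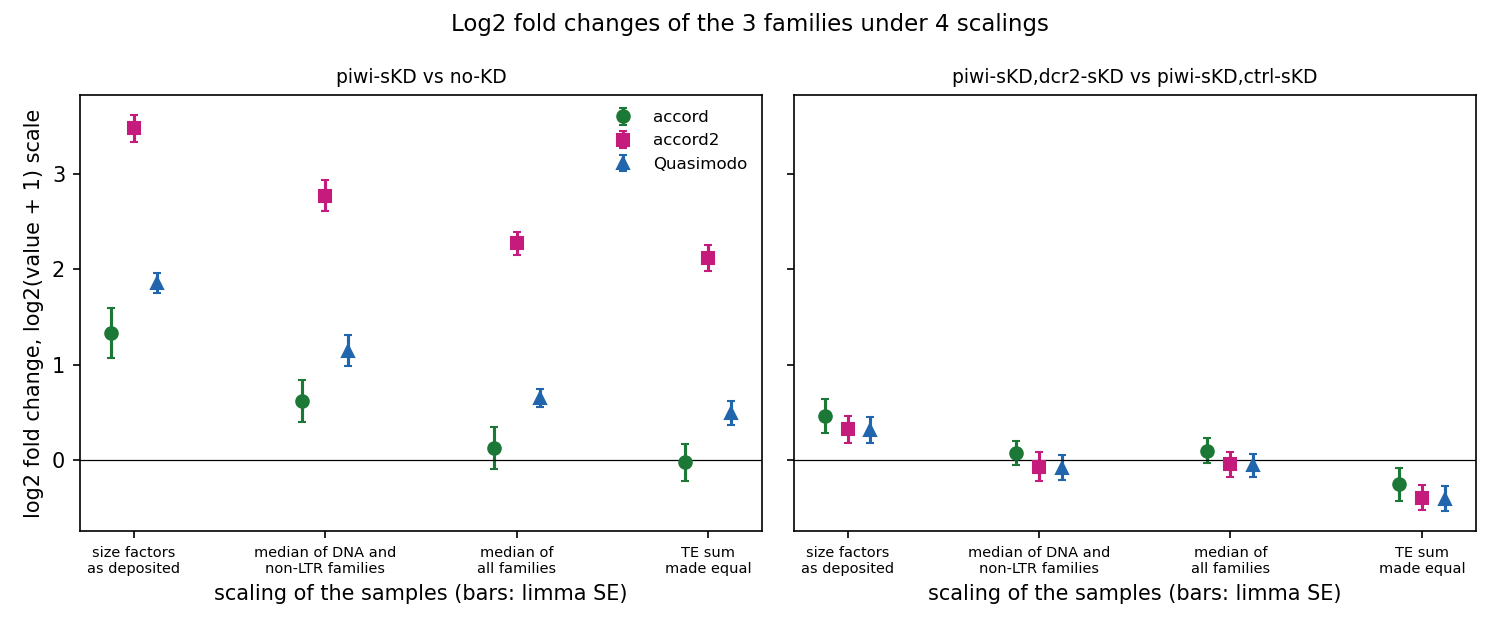
Log2 fold changes of accord, accord2 and Quasimodo with limma SE bars in the 2 comparisons, with the size factors as deposited and under 3 scalings on TE families. In piwi-sKD against no-KD accord2 is at 2.12 or more under all 4, while accord is at -0.025 with the TE sum made equal, and in the second comparison the values lie between -0.41 and 0.46.

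The ratio of a pair of families within a sample does not depend on its size factor, so it can be listed for all 4 groups. The double knockdowns differ in genotype from the no-KD flies and have no such group of their own. Their ratios are therefore set beside no-KD as description only, and the difference was not tested. The ratio of accord2 to Quasimodo reads was 0.302 and 0.286 in no-KD, against 0.827 and 1.01 in piwi-sKD. It was 1.05 and 0.926 in piwi-sKD,ctrl-sKD. The piwi-sKD,dcr2-sKD samples had ratios of 1.12 and 0.878. All 6 samples labelled 25°C were therefore above both no-KD samples, and the double knockdowns overlapped each other. The change of the log2 ratio was 1.62 in the first comparison, where replicates varied with an SD of 0.15, and 0.01 in the second, with an SD of 0.20.

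The ratio of accord2 to accord behaved alike, at 1.23 and 1.74 in no-KD, against 7.07 and 5.98 in piwi-sKD. It was 4.98 and 5.41 in piwi-sKD,ctrl-sKD, against 5.07 and 4.36 in piwi-sKD,dcr2-sKD. The log2 ratio changed by 2.15 in the first comparison (replicate SD 0.28) and by -0.14 in the second (replicate SD 0.12). By contrast the ratio of Quasimodo to accord overlapped between no-KD (4.07 and 6.08) and the piwi-sKD samples (8.55 and 5.94), with a change of 0.53 on the log2 scale and a replicate SD of 0.39. An exact permutation test of 2 samples against 2 cannot give a two-sided p under 0.333, so none is given for these ratios.

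**Figure D4:**
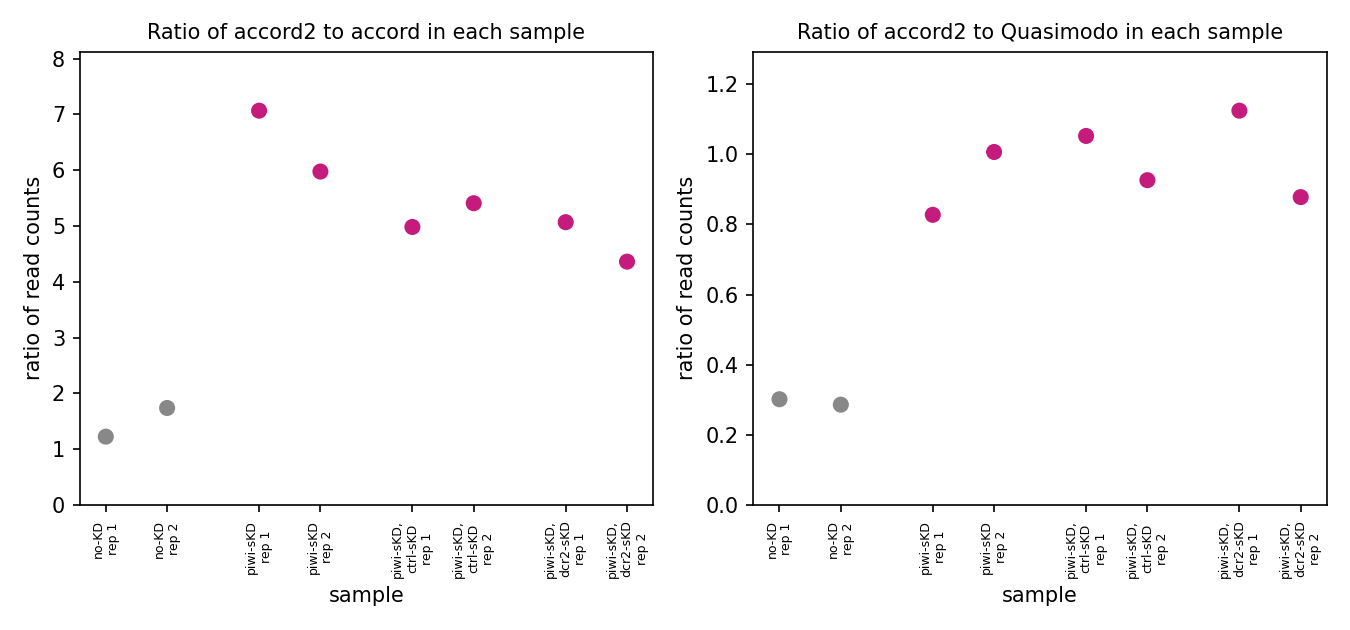
Ratio of accord2 to accord reads (left) and of accord2 to Quasimodo reads (right) in each of the 8 samples, no-KD in grey and the groups labelled 25°C in colour. The no-KD ratios are 1.23 and 1.74 on the left and 0.302 and 0.286 on the right, and every other sample is higher.

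The piwi-sKD and piwi-sKD,ctrl-sKD groups differ in genotype but both were made to deplete Piwi. The normalized count of accord2 was 1059 ± 134 in the first and 660 ± 21.2 in the second (SD, n = 2 each). For Quasimodo these levels were 1156 ± 13.6 and 669 ± 38.8. For accord they were 165 ± 39.995 and 127 ± 11.5. These values come from tables with separate size factors and were not tested against each other.

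Levels of the 3 families can be compared only per length, and the length of the transcribed copies was not measured. The typical length was taken as the median of annotated insertions over 4000 bp that overlap no other TE, which gave 5225 bp for accord (1 insertion), 7650 bp for accord2 (1 insertion) and 7379 bp for Quasimodo (15 insertions). On that scale accord and accord2 were alike in no-KD, at 12.6 ± 4.12 and 12.2 ± 1.05 normalized counts per kb, and Quasimodo was higher at 43.1 ± 2.12 (SD, n = 2 each). In piwi-sKD the levels per kb were 31.5 ± 7.65 for accord, 138 ± 17.5 for accord2 and 157 ± 1.85 for Quasimodo. There accord2 and Quasimodo were within about their spread of each other, and accord was below both. The double knockdowns kept that order, with accord at 24.4 ± 2.19 and 33.6 ± 0.61, accord2 at 86.2 ± 2.78 and 108 ± 9.51, and Quasimodo at 90.6 ± 5.26 and 113 ± 9.78 normalized counts per kb.

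The families most like each of the 3 over the 8 samples were found by the root-mean-square difference of log2 levels, each centred on the mean of its table, among 104 families. They were picked on these same values, so like changes between groups follow from the choice. The nearest to accord2 were the LTR element gypsy (0.12), the DNA element mariner2 (0.19) and the LTR element invader3 (0.28). Gypsy, which has an env gene and can act as a retrovirus, stood at 85.8 ± 12.9 in no-KD, against 1149 ± 152 in piwi-sKD, and at 832 ± 17.8 and 942 ± 174 normalized counts in the double knockdowns (SD, n = 2 each). Its ratio of group means was 13.4 in the first comparison and 1.13 in the second, beside 11.3 and 1.25 for accord2.

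Nearest to Quasimodo were the DNA element S (0.11), the LTR element diver2 (0.15) and the non-LTR element G6 (0.18). Diver2 rose 3.75-fold in piwi-sKD, from 325 ± 46.9 to 1219 ± 199 normalized counts. Nearest to accord were the LTR element Burdock (0.18) and the non-LTR elements Cr1a (0.18) and G6 (0.22). Burdock stood at 212 ± 23.9 in no-KD, against 431 ± 40.6 in piwi-sKD, a ratio of 2.03. The names accord and accord2 did not go with a small difference on this measure, which also grows with the size of a change. The difference between this pair was 0.78, against 0.59 between accord2 and Quasimodo and 0.29 between accord and Quasimodo. Among the 104 families accord was the 22nd nearest to accord2, and accord2 was the 92nd nearest to accord.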

How the data were processed

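PolyA RNA of 8 ovary samples was sequenced. The authors trimmed reads with UrQt, aligned genes with TopHat2, counted TE families with TEcount on reference copies, and normalized genes and TEs together with DESeq2 1.10. Deposited values are a signal, each family's read count divided by its sample's size factor, in 2 tables normalized separately. All values were whole multiples of 1 step per sample (tolerance 1e-06 of a read), which gave 78807 to 343458 TE reads per sample and size factors of 0.927 to 1.13. Comparisons were made within a table with limma 3.58.1 in R 4.3.3 (mean-variance trend) on log2(value + 1), adjusted over all 109 or 110 families not at 0 throughout, with a threshold of 0.05. The test was checked on simulated data. In the second table the prior degrees of freedom were infinite, so the spread is shared by families of like level. Groups came from the sample titles. The double-knockdown library names carry a number above their temperature label, and the label was followed. The members, the Gypsy-superfamily list (42 of its families had a value) and the rules were chosen with earlier results of these data known. The named families were the 3 members and, for each, the 3 nearest in root-mean-square difference with a mean of at least 10 normalized counts in both tables. Those that were lower in the Gypsy list were named after their values were seen. Insertions came from the BDGP6.54 annotation, whose build need not be that of the TE copies used by the authors. Alternatives were other pseudocounts, a filter, 3 scalings, no trend, a replicate block and each sample left out.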

Additional observations from a re-analysis of the deposited data

How the results depend on the processing

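The 6 log2 fold changes had 78 alternative values, of which 60 kept direction and side of the threshold, 7 became weaker, 3 stronger and 8 reversed. The rises of accord2 and Quasimodo in piwi-sKD held under all of them. Pseudocounts, the filter and the fit without a trend changed no call of the 3 families. The planned count tests on reads were not run because the tables hold too few low values.

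Centred on the median of all families, accord was at 0.13 in the first comparison, while in the second accord was at 0.10, accord2 at -0.046 and Quasimodo at -0.056. Centred on the DNA and non-LTR families' median, the second comparison gave 0.072, -0.070 and -0.080 in that order. With the TE sum made equal, accord was at -0.025 in the first, and the second gave -0.25, -0.40 and -0.41. Of the other Gypsy-superfamily families, 29 were higher and 1 lower in the first comparison, against 17 and 4 in the second, as deposited. Under these 3 scalings, in the order given, the first gave 14 and 21, 16 and 9, and 14 and 26. The second gave 12 and 9, 11 and 9, and 10 and 21. Over all 109 families the first comparison gave 22 and 71, 28 and 35, and 22 and 78. Over all 110 families the second gave 16 and 19, 14 and 17, and 12 and 65.

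With each sample left out in turn, the log2 fold changes in the second comparison ran from 0.37 to 0.55 for accord and from 0.22 to 0.40 for Quasimodo. The lower Gypsy-superfamily families ranged from 0 to 1 in the first comparison and from 2 to 4 in the second. Leaving out one sample leaves a lone sample in its group, which is assumed to vary like the others.

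The replicate numbers are not stated to pair samples. For each family the deviation of its log2 level from its group mean was taken, and these deviations were correlated between same-numbered samples. The correlation was -0.13 in the first comparison, against 0.25 in the second, over 105 families each. With the replicate block the log2 fold changes were 1.33, 3.48 and 1.86 for accord, accord2 and Quasimodo in the first comparison, against 0.46, 0.32 and 0.31 in the second, and no call changed. The block gave 53 higher and 5 lower families in the first comparison, against 33 and 3 in the second, over all families. The crossed block, chosen after seeing the data, gave 64 and 8 against 36 and 4, with accord2 (0.32, limma adjusted p = 0.0324) and Quasimodo (0.31, limma adjusted p = 0.0384) past the threshold in the second. With 2 samples a group small changes could be missed in either comparison, and accord and accord2 had only 50 to 92 reads in no-KD. No detection limit was computed.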
